A study of Mus musculus with 8 samples.

Results

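The transcripts of 10 genes that mark adipocytes, the cells that store fat, were followed through bulk RNA libraries of mouse testis: Adipoq, Plin1, Plin4, Cfd, Fabp4, Cidec, Cidea, Car3, Lpl and Retn. The 10 members were found by gene symbol among the 57690 rows of the deposited table, and each symbol had 1 row. All libraries came from testes of C57BL/6 mice aged 8 weeks. In the treated arm 4 libraries were made from mice given 2 intraperitoneal injections of 200 µg of anti-PD-L1, an antibody against the ligand of the T cell receptor PD-1. The other 4 libraries were made from mice given 2 such injections of 200 µg of IgG2b isotype, the control antibody. Tissue was collected 7 days after treatment. Whether each library was made from a different mouse is not stated in the labels, and p-values therefore reflect the spread among these 8 libraries, which may be technical. Values are in TPM, a unit that corrects for gene length and for the total of the library, and the read depth behind them is unknown.

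Adipocytes hold triglyceride in a large lipid droplet and release signalling proteins into the blood. Lipoprotein lipase at the capillary wall frees fatty acids from circulating lipoproteins, fatty acid binding proteins carry them inside the cell, and perilipins and CIDE proteins coat and enlarge the droplet. An epididymal fat pad lies beside the mouse testis, while cells within the testis, Leydig and Sertoli cells among them, also hold lipid droplets.

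Each library summed to about 1000000 TPM. Anti-PD-L1 replicate 1 and IgG replicate 4 held more genes of at least 1 TPM than the rest, with 21083 and 21116 genes, where the other 6 libraries held 19494 to 19665. Germ cell markers were abundant in all 8 libraries: Prm1, which encodes a protamine of sperm chromatin, ranged from 12102 to 14707 TPM in anti-PD-L1 libraries and from 13780 to 16633 TPM in IgG libraries. The Leydig markers Star, Cyp11a1 and Cyp17a1, the Sertoli markers Sox9, Amhr2 and Wt1 and the myoid markers Myh11, Acta2 and Tagln were above 0 in every library. The summed Leydig list ranged from 2309 to 3584 TPM in anti-PD-L1 libraries and from 1344 to 1710 TPM in IgG libraries, most of it from Insl3, with 0 of its 10 genes called in limma and 3 higher at an unadjusted p under 0.05.

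The members fell into 2 sets by their range across the 8 libraries. In Fabp4, Cfd, Car3, Lpl and Cidec the highest library exceeded the lowest by more than 10 times, or the lowest was listed at 0. The other 5 members, Adipoq, Retn, Plin1, Plin4 and Cidea, ranged less. This split was drawn after the values were seen. The highest value lay in IgG replicate 1 for 9 of 10 members, where 9.05% of all genes tested had their highest value, and the exception was Plin1.

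Fabp4 encodes the fatty acid binding protein of adipocytes and of some capillary endothelium and macrophages (mm10 chromosome 3, 10204088 to 10208576). It was at 1.56, 0.51, 3.13 and 0.93 TPM in anti-PD-L1 replicates 1 to 4, against 33.2, 1.24, 9.26 and 2.99 TPM in IgG replicates 1 to 4. IgG replicates 1 and 3 were thus above all the other libraries, while IgG replicates 2 and 4 lay within the range of the anti-PD-L1 libraries, so the groups overlapped. The highest library was 65.0 times the lowest.

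Cfd encodes adipsin, a serine protease of the alternative complement pathway that adipocytes secrete (chromosome 10, 79890853 to 79892655). It was at 0.42, 0, 1.1 and 0 TPM in anti-PD-L1 libraries, against 24.6, 0, 8.06 and 0.67 TPM in IgG libraries. Car3 encodes carbonic anhydrase 3, an abundant cytosolic protein of fat and of slow skeletal muscle (chromosome 3, 14863512 to 14872523). It was at 0.14, 0, 1.62 and 0 TPM in anti-PD-L1 libraries, against 20.8, 0.28, 3.99 and 0.77 TPM in IgG libraries. Both genes were high in the same pair of IgG libraries as Fabp4 and next highest in anti-PD-L1 replicate 3, and both were listed at 0 in anti-PD-L1 replicates 2 and 4.

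Lpl encodes lipoprotein lipase, which fat, muscle and macrophages produce (chromosome 8, 68880491 to 68907448). It was at 1.23, 0.77, 1.83 and 0.69 TPM in anti-PD-L1 libraries, against 7.82, 0.73, 2.82 and 1.40 TPM in IgG libraries. Cidec encodes the droplet protein that lets lipid droplets of white fat grow into a single large one (chromosome 6, 113424634 to 113435760). It was at 0.09, 0.21, 0.52 and 0.09 TPM in anti-PD-L1 libraries, against 2.96, 0.19, 0.74 and 0.29 TPM in IgG libraries. IgG replicate 1 was highest and IgG replicate 3 second in both genes, and the groups overlapped. Unlike Cfd and Car3, Lpl had a value of at least 0.69 TPM in every library.

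**Figure D1:**
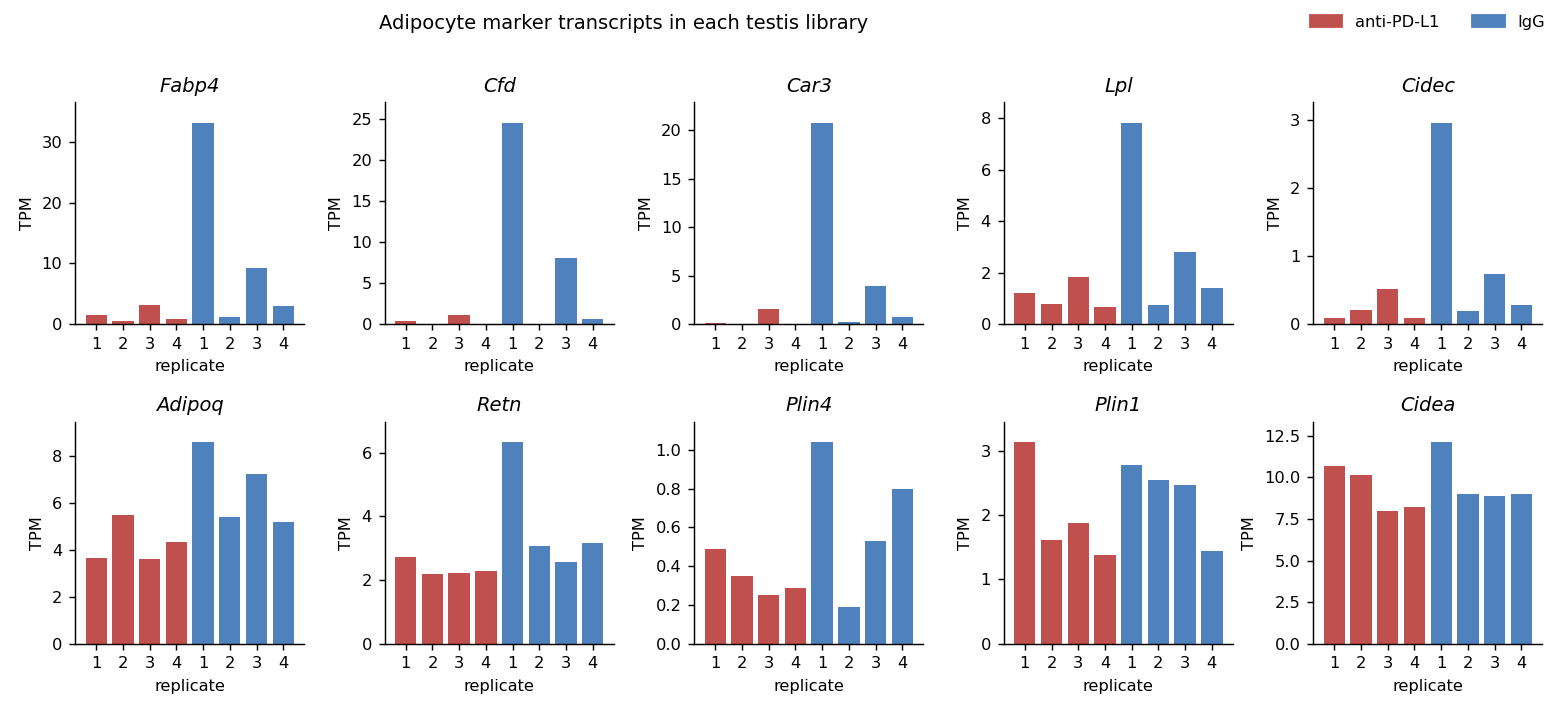
TPM of each of the 10 members in each library, with a separate vertical axis from 0 for each gene; bars are single libraries, anti-PD-L1 replicates 1 to 4 at the left and IgG replicates 1 to 4 at the right. The upper row holds the members that ranged most, which peak in IgG replicates 1 and 3, and the lower row the members that ranged less, such as Cidea between 7.99 and 12.1 TPM.

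Adipoq encodes adiponectin, an abundant hormone of fat (chromosome 16, 23146536 to 23158028). It was at 3.64, 5.48, 3.62 and 4.33 TPM in anti-PD-L1 libraries, against 8.57, 5.4, 7.23 and 5.17 TPM in IgG libraries. IgG replicates 1 and 3 were again the highest, but the lowest of the 8 libraries still held 3.62 TPM, and the highest was 2.37 times the lowest. Anti-PD-L1 replicate 2, which had the least Fabp4, had the third highest Adipoq. Anti-PD-L1 replicates 2 and 4, in which Cfd and Car3 were listed at 0, thus held 5.48 and 4.33 TPM of Adipoq.

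Retn encodes resistin, a secreted protein of mouse white fat (chromosome 8, 3655770 to 3660110). It was at 2.71, 2.19, 2.23 and 2.29 TPM in anti-PD-L1 libraries, against 6.33, 3.08, 2.58 and 3.15 TPM in IgG libraries. IgG replicate 1 stood above the rest, and the other 7 libraries lay between 2.19 and 3.15 TPM. IgG replicate 3, the second highest library for Fabp4, was at 2.58 TPM of Retn, below anti-PD-L1 replicate 1.

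Plin1 encodes perilipin 1, the droplet coat protein that gates lipolysis in fat and is also made by steroid-producing cells (chromosome 7, 79720218 to 79732903). It was at 3.13, 1.61, 1.88 and 1.38 TPM in anti-PD-L1 libraries, against 2.77, 2.54, 2.47 and 1.44 TPM in IgG libraries. Its highest library was anti-PD-L1 replicate 1, and the ratio of highest to lowest was 2.27. Plin4, another perilipin of fat (chromosome 17, 56100591 to 56109803), was at 0.49, 0.35, 0.25 and 0.29 TPM in anti-PD-L1 libraries, against 1.04, 0.19, 0.53 and 0.80 TPM in IgG libraries. These levels are low, and Plin4 also overlaps Hdgfl2 on the opposite strand by 17 bases, where reads could not be told apart without strand.

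Cidea encodes a droplet protein best known from brown fat. It was the most abundant and the steadiest member, at 10.7, 10.2, 7.99 and 8.20 TPM in anti-PD-L1 libraries, against 12.1, 8.99, 8.91 and 8.98 TPM in IgG libraries. Its highest library was 1.52 times its lowest, which made it the only member within a factor of 2, a range that 14238 of the 20343 genes tested kept. Cidea overlaps B430212C06Rik on the opposite strand, and the strand setting of the counting is not given in the sources used here, so a part of its value is uncertain.

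By median TPM over the 8 libraries the order was Cidea (8.98), Adipoq (5.28), Retn (2.64), Fabp4 (2.27), Plin1 (2.17), Lpl (1.31), Cfd (0.545), Car3 (0.525), Plin4 (0.42) and Cidec (0.25). Cidea exceeded Adipoq in 8 of 8 libraries, and Adipoq exceeded Retn in 8 of 8. Below that the neighbours in the order changed places between libraries: Retn exceeded Fabp4 in 5 of 8, Fabp4 exceeded Plin1 in 4 of 8, Plin1 exceeded Lpl in 6 of 8, Lpl exceeded Cfd in 6 of 8, Cfd exceeded Car3 in 3 of 8, Car3 exceeded Plin4 in 4 of 8 and Plin4 exceeded Cidec in 4 of 8.

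Promoters of 6 of the 10 members were matched by symbol in the RefSeq table of the GRCm38.p6 assembly, the assembly of mm10, each with 250 bases before the start site and 50 after. The windows of Cfd and Cidec, which varied widely, are set beside those of Adipoq and Plin1, which ranged less. They are Cfd at chr10:79890603-79890902 on the plus strand, Cidec at chr6:113435711-113436010 on the minus strand, Adipoq at chr16:23146286-23146585 on the plus strand and Plin1 at chr7:79732727-79733026 on the minus strand, and capitals mark motif matches.
Cfd: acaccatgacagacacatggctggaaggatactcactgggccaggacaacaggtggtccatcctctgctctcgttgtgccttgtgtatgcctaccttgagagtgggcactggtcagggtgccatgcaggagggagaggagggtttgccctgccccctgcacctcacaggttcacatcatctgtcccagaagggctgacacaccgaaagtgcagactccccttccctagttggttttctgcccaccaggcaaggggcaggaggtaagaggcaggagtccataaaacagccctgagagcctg
Cidec: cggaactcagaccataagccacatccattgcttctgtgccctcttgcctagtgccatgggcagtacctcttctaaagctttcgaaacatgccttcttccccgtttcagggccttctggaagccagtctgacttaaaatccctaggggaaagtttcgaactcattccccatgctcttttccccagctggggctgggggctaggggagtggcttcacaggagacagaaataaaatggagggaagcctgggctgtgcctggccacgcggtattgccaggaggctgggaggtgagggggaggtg
Adipoq: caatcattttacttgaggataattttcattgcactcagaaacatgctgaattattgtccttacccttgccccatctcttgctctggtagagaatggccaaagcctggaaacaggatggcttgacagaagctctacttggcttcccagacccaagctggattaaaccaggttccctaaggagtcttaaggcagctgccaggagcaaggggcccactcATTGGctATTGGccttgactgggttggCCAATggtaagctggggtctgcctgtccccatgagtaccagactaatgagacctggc
Plin1: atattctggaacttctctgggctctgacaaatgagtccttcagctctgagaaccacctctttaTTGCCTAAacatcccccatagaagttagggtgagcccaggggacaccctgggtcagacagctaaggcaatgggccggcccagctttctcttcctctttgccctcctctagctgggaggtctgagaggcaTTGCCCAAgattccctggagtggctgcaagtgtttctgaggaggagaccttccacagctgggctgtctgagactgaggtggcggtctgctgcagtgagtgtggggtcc

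The motifs were searched on both strands: the nuclear receptor element AGGTCA, its direct repeat (2 copies of AGGTCA with 1 base between, the kind of element that PPAR gamma and its partner bind in fat, so that each match also holds the single element), the C/EBP element TTGCNNAA, the CCAAT box, the TATA box TATAAA and the CRE TGACGTCA. Of 32851 promoters of this length, AGGTCA was in 16.3%, the direct repeat in 0.0396%, TTGCNNAA in 10.8%, CCAAT in 37.4%, TATAAA in 13.6% and TGACGTCA in 1.79%. Adipoq held 3 CCAAT matches, at -34, -27 and -7 from the start site, and Plin1 held 2 TTGCNNAA matches, at -187 and -58. Cfd and Cidec held none of these letters in the windows shown. Cidec had a second window, at chr6:113434715-113435014, which held 1 TTGCNNAA match, at -198. Among the other windows not shown, that of Plin4 held 1 CCAAT match, at -18, and that of Retn held none of the motifs. Whether motifs differ between the widely ranging members and the others was not tested. The Adipoq window had no CG dinucleotide, which 5.43% of promoters share. The windows of Cfd and Plin1 each had 2 and the Cidec window shown had 6, against a median of 7 over all promoters.

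How far the members moved together from library to library was measured by correlation of log2(TPM + 1) over the 8 libraries. With Adipoq as the anchor, as designed, Pearson's r of the 9 other members ran from 0.245 for Plin1 to 0.768 for Cfd. None reached 0.8 with all 8 libraries, a value that 0.762% of all genes tested reached. The count rested on single libraries, since 2 members followed Adipoq by the criterion of an r of at least 0.8, kept also without the libraries farthest from the median, when anti-PD-L1 replicate 2 was left out, and 4 did so when anti-PD-L1 replicate 3 was. Leaving out the libraries with the most detected genes gave an r of 0.840 for Plin4 and 0.814 for Cidea. The smallest p over the 9 relations was 0.0182, for Cidec, by an exact permutation test over pairings, two-sided, and all 9 Benjamini-Hochberg adjusted values were at least 0.0777. Spearman's rho with Adipoq was at most 0.563, with an exact permutation p of 0.155 for that pair and an adjusted p of 0.563 as the smallest of the 9. With the libraries farthest from the Adipoq median left out (anti-PD-L1 replicate 3, IgG replicate 1), r was 0.893 for Cidec, 0.767 for Car3, 0.678 for Cfd, 0.627 for Fabp4 and 0.573 for Lpl. For the remaining 4 members it was near or below 0, at 0.0932 for Plin4, 0.0231 for Retn, -0.0694 for Plin1 and -0.332 for Cidea.

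Fabp4 was then taken as the anchor, since it was above 0 in all libraries and ranged most. This choice was made after the values were seen, and its correlations are given as a description with no p. Car3 had an r of 0.988 with Fabp4 and a rho of 0.970, Cfd had 0.984 and 0.976, and Lpl had 0.984 and 0.929. Without IgG replicates 1 and 3, the libraries farthest from the Fabp4 median, r was 0.904 for Car3, 0.923 for Cfd and 0.896 for Lpl, so these 3 genes kept to Fabp4 also among the 6 libraries with little of it. In those 6 libraries Cfd was at most 1.1 TPM and Car3 at most 1.62 TPM, and both were listed at 0 in some. Their r there thus rests on values near 0, at an unknown read depth. Cidec had an r of 0.948, or 0.680 without that pair of libraries. Of all genes tested 0.585% had an r of at least 0.8 with Fabp4.

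The other members had an r of at most 0.402 with Fabp4 once IgG replicates 1 and 3 were left out. Retn had an r of 0.802 over 8 libraries and 0.350 without the pair, Plin4 had 0.760 and 0.402, and Plin1 had 0.444 and 0.0116. Adipoq had 0.731 and -0.414, and Cidea had 0.474 and -0.409. After each group's mean was subtracted, r with Fabp4 over both groups together was 0.991 for Lpl, 0.985 for Car3, 0.980 for Cfd and 0.938 for Cidec. For these genes the relation thus remained once the group means were removed. The same r was 0.535 for Adipoq and 0.457 for Cidea. Among the anti-PD-L1 libraries alone, however, Adipoq ran opposite to Fabp4. It fell from 5.48 TPM in replicate 2, lowest there in Fabp4, to 3.62 TPM in replicate 3, highest there in Fabp4. Cidea was also lowest in anti-PD-L1 replicate 3, at 7.99 TPM. Leaving out the libraries with the most detected genes instead, anti-PD-L1 replicate 1 and IgG replicate 4, gave an r of 0.995 for Car3, 0.989 for Cfd, 0.987 for Lpl and 0.958 for Cidec. That choice also gave higher values for other members, 0.899 for Plin4, 0.811 for Retn, 0.738 for Adipoq, 0.733 for Plin1 and 0.595 for Cidea, so how far these 5 went with Fabp4 depended on which libraries were kept.

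**Figure D2:**
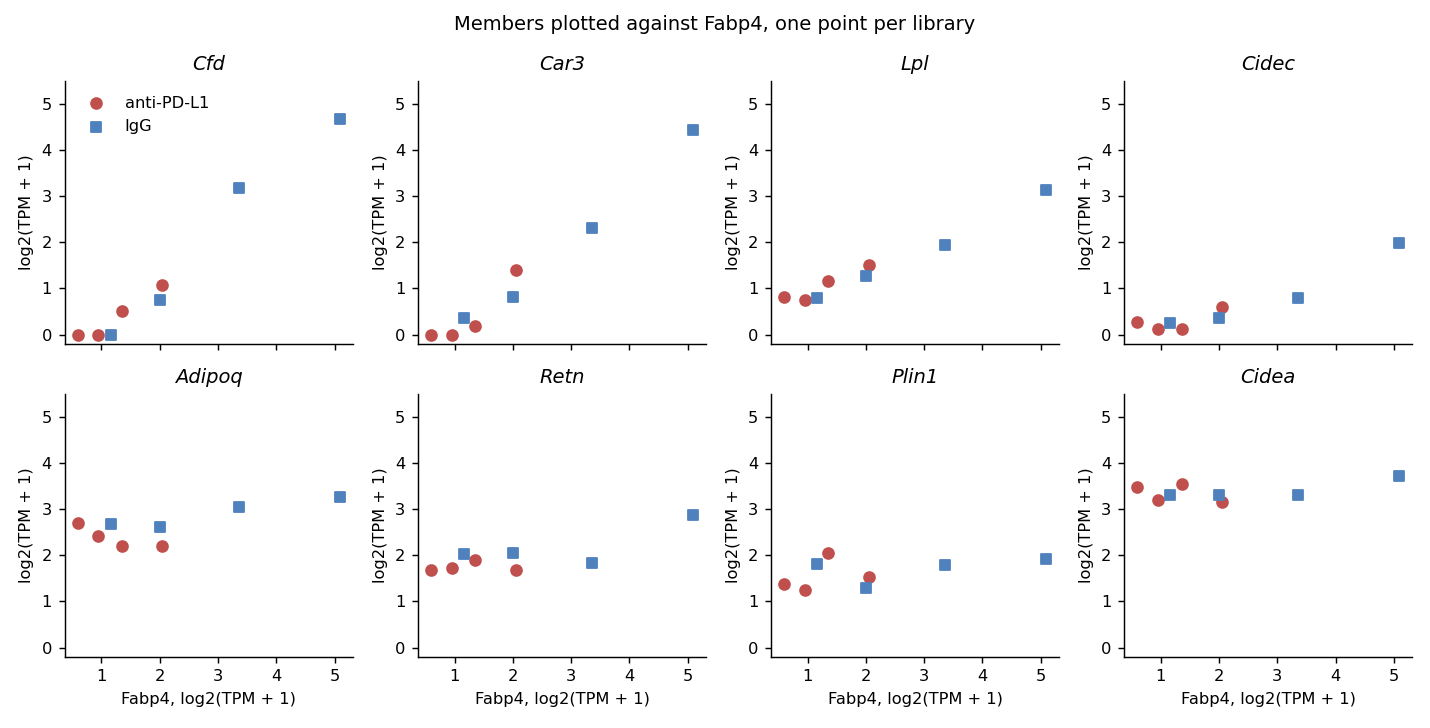
log2(TPM + 1) of 8 members (vertical axes) against that of Fabp4 (horizontal axes), with a point for each of the 4 anti-PD-L1 libraries (circles) and 4 IgG libraries (squares). Cfd, Car3, Lpl and Cidec climb along with Fabp4 (r from 0.948 to 0.988), whereas Cidea and Plin1 span less of the axis (7.99 to 12.1 and 1.38 to 3.13 TPM), with Cidea highest where Fabp4 is highest.

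A straight line of each member's TPM on that of Fabp4 gave the level at 0 TPM of Fabp4 as its intercept, as a description of the 8 libraries. The intercept was 8.93 TPM for Cidea (SE 0.454), 4.58 for Adipoq (SE 0.442), 2.31 for Retn (SE 0.217) and 1.99 for Plin1 (SE 0.272). It was 0.743 TPM for Lpl (SE 0.102), 0.354 for Plin4 (SE 0.0820) and 0.0655 for Cidec (SE 0.0476), and below 0 for Cfd and Car3. Without IgG replicate 1 the intercepts were 9.35 TPM for Cidea, 4.20 for Adipoq, 2.58 for Retn, 1.93 for Plin1 and 0.668 for Lpl. For each TPM of Fabp4 the line added 0.775 TPM of Cfd, 0.640 of Car3, 0.215 of Lpl and 0.128 of Adipoq. Without IgG replicate 1 the slopes were 0.953 for Cfd, 0.473 for Car3, 0.244 for Lpl and 0.278 for Adipoq. Among these genes the slope of Adipoq moved most as a ratio. Leaving out that library took the slope of Retn from 0.116 to 0.00891 and that of Cidea from 0.0873 to -0.0763.

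The step between IgG replicates 1 and 3, the highest pair of libraries for Fabp4, was also unequal among the members. IgG replicate 1 over IgG replicate 3 gave a ratio of 5.2 for Car3, 4.0 for Cidec, 3.58 for Fabp4, 3.05 for Cfd and 2.77 for Lpl. The same ratio was 2.45 for Retn, 1.96 for Plin4, 1.36 for Cidea, 1.19 for Adipoq and 1.12 for Plin1. In Retn, Plin4, Cidea and Plin1 these libraries were not the highest pair. Each of these libraries is a single sample, so the ratios carry no replicate error.

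Anti-PD-L1 and IgG libraries were compared with limma on log2(TPM + 1) over 20343 genes, those whose mean reached 1 TPM. This scale understates the change of low genes. Of the members, 8 passed that filter, and Plin4 and Cidec did not. None of the 8 was called at a Benjamini-Hochberg adjusted p of 0.05 in limma, where 0% of all genes tested were called (452 lower and 611 higher at an unadjusted p under 0.05), and the members' adjusted p ran from 0.812 to 0.999. At an unadjusted p under 0.05, 1 of the 8 was lower, Adipoq, against 2.22% of all genes tested. In bulk tissue, fewer cells of a type and less RNA per cell cannot be told apart.

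Adipoq averaged 4.27 ± 0.873 TPM in anti-PD-L1 libraries and 6.59 ± 1.61 TPM in IgG libraries (SD, n = 4 each). The difference of log2(TPM + 1) was -0.52 (SE 0.18, 95% confidence interval -0.92 to -0.11), and limma gave it an unadjusted p of 0.0179 and 0.812 after adjustment. By exact permutation of the libraries (70 assignments, two-sided) p was 0.0857 for Adipoq, and the smallest value possible there is 0.0286. All 4 anti-PD-L1 libraries lay below the IgG median of Adipoq, and the groups overlapped, since anti-PD-L1 replicate 2 exceeded IgG replicates 2 and 4. Without IgG replicate 1 the difference of Adipoq was -0.40.

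The widely ranging members had larger differences and wider intervals. Fabp4 averaged 1.53 ± 1.15 TPM in anti-PD-L1 libraries and 11.7 ± 14.7 TPM in IgG libraries (SD, n = 4 each), a log2 difference of -1.67 (95% confidence interval -3.39 to 0.060), or -0.94 without IgG replicate 1. The log2 difference of Cfd was -1.76 (interval -3.86 to 0.35), or -0.91 without IgG replicate 1. For Car3 it was -1.59 (interval -3.45 to 0.27), or -0.77 without that library. Since Cfd and Car3 were listed at 0 in some libraries, these differences depend on the pseudocount: with 0.1 in place of 1 they were -2.82 and -3.18, and no member was called in limma then either. Lpl averaged 1.13 ± 0.524 TPM in anti-PD-L1 libraries and 3.19 ± 3.21 TPM in IgG libraries (SD, n = 4 each), a log2 difference of -0.72 (interval -1.77 to 0.32), or -0.27 without IgG replicate 1. IgG replicate 1 thus moved these 4 differences by more than 1.5 times.

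Retn averaged 2.36 ± 0.240 TPM in anti-PD-L1 libraries and 3.79 ± 1.72 TPM in IgG libraries (SD, n = 4 each), a log2 difference of -0.46 (interval -0.95 to 0.043), or -0.23 without IgG replicate 1. Its exact permutation p was 0.0571, two-sided. Plin1 averaged 2.0 ± 0.781 TPM in anti-PD-L1 libraries and 2.31 ± 0.591 TPM in IgG libraries, a log2 difference of -0.15 (interval -0.64 to 0.34). Leaving out single libraries moved it from -0.318 without anti-PD-L1 replicate 1 to -0.0529 without anti-PD-L1 replicate 4, with -0.083 without IgG replicate 1 and -0.293 without IgG replicate 4. It was -0.46 without both libraries of most detected genes and -0.33 with array quality weights. Cidea averaged 9.26 ± 1.37 TPM in anti-PD-L1 libraries and 9.75 ± 1.58 TPM in IgG libraries, a log2 difference of -0.066 (interval -0.37 to 0.24), and 0.034 without IgG replicate 1. For the members below the filter the difference of mean log2(TPM + 1) was -0.57 for Cidec, with an exact permutation p of 0.200, and -0.26 for Plin4, with 0.229. With a pseudocount of 0.1 these were -1.35 for Cidec and -0.59 for Plin4, so they too depend on the pseudocount. Without IgG replicate 1 they were -0.19 and -0.15, and without IgG replicate 2 Plin4 was at -0.41, with an exact permutation p of 0.0286.

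In all, 10 of 10 members had a log2 difference below 0, where 41.7% of all genes tested did, and the median of the 8 tested members was -0.62, against 0.026 over all genes tested. Of these 8, Cfd and Car3 reached the filter only through the IgG libraries, with means of 8.3 and 6.4 TPM there. Their means in anti-PD-L1 libraries were 0.38 and 0.44 TPM, so their place in that median depended on the group where they were high. Without IgG replicate 1 the median was -0.33 and 7 of the 8 were below 0. The groups did not overlap for 0 of 10 members, where 1.23% of all genes tested lay with every anti-PD-L1 library below every IgG library. The members share the libraries in which they were high, so their common direction does not count as 10 separate observations.

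**Figure D3:**
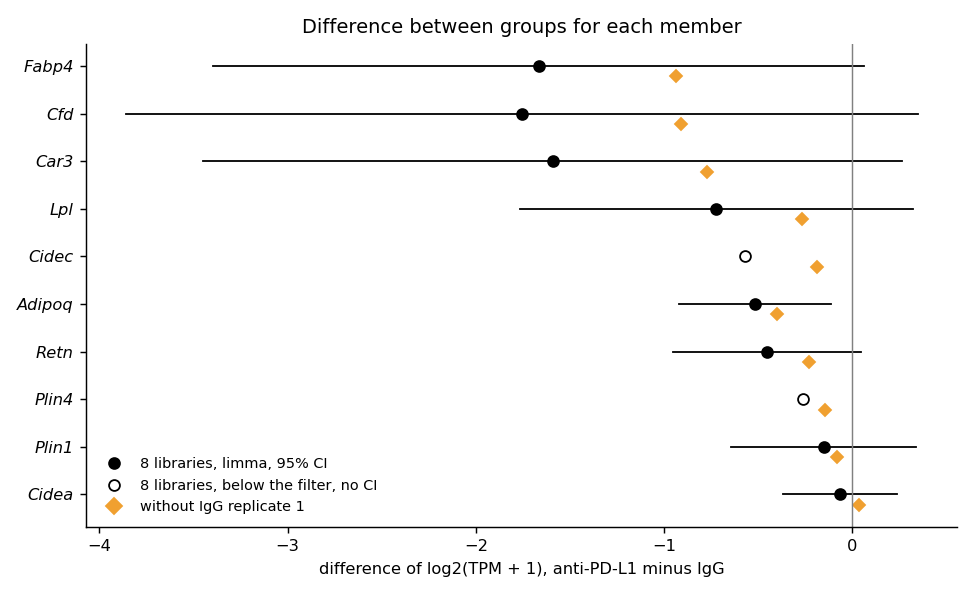
Difference of log2(TPM + 1), anti-PD-L1 minus IgG, for each member over 8 libraries (circles, with the 95% confidence interval of limma for the 8 members tested; open circles, the 2 members below the filter) and without IgG replicate 1 (diamonds). The intervals of 7 of the 8 tested members include 0, and the difference of Fabp4 is -1.67, or -0.94 when IgG replicate 1 is left out.

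Of 36 relatives of the members in the same protein families, 18 had a mean under 1 TPM and 7 a mean over 10 TPM. In 15 of the 18 that were tested the highest library was at most 2 times the lowest, against 14238 of all 20343 genes tested. Limma called 0 of the 18, with 0 at an unadjusted p under 0.05. Plin2, a perilipin found in most cells with droplets, ranged from 48.2 to 64.6 TPM, Plin3 from 7.67 to 10.8 TPM and Plin5 was at most 1.93 TPM. Among the fatty acid binding proteins, Fabp9 of spermatids ranged from 2945 to 3385 TPM and Fabp12 from 102 to 119 TPM, so Fabp4 was a small part of its family. Fabp3 ranged from 154 to 240 TPM and Fabp5 from 12.5 to 16.2 TPM, and Fabp6 was listed at 0 in all libraries. Car2, a carbonic anhydrase of many tissues, ranged from 102 to 138 TPM, where Car3 ranged from 0 to 20.8 TPM. Retnla, a relative of resistin, was at 0, 0, 0.35 and 0 TPM in anti-PD-L1 libraries, against 1.19, 0, 0.49 and 0 TPM in IgG libraries. It was thus above 0 only in the 3 libraries that had the most Fabp4. Cideb was at most 0.13 TPM.

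Partners of the members were measured as well. The adiponectin receptors Adipor1 and Adipor2 reached 45.2 and 20.9 TPM, and Cdh13, the cell surface T-cadherin that binds adiponectin, ranged from 30.4 to 42.3 TPM. Their log2 differences were 0.073, 0.039 and -0.13, each with an adjusted p of 0.999 in limma. Lmf1, which matures lipoprotein lipase in the endoplasmic reticulum, ranged from 61.1 to 74.3 TPM, whereas Gpihbp1, which carries the lipase to the capillary wall, was at most 0.60 TPM. Of 18 partner genes 8 were tested, 4 lower and 4 higher, with a median log2 difference of 0.013 and 0 called.

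Other adipocyte genes were described from lists of secreted proteins, droplet and lipolysis proteins, lipid synthesis, lipid uptake and signalling, transcription factors and brown fat. Of these 89 genes 61 passed the filter, 31 lower and 30 higher after anti-PD-L1, with a median log2 difference of -0.0035, and 0 were called in limma. At an unadjusted p under 0.05, 1 was lower, Adig, and 1 was higher, Insr. In 46 of the 61 the highest library was at most 2 times the lowest, where 14238 of the 20343 genes tested kept that range. Their summed level ran from 3310 to 3512 TPM in anti-PD-L1 libraries and from 3344 to 3449 TPM in IgG libraries.

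Several of these genes had high and even levels in testis. Lipe, the hormone-sensitive lipase, which also has a testis form, ranged from 166 to 199 TPM, Bscl2, which encodes the droplet assembly protein seipin, from 285 to 342 TPM, and Acsl1, which activates fatty acids, from 435 to 501 TPM. Lpin1, a phosphatidate phosphatase of triglyceride synthesis, ranged from 225 to 269 TPM, Agt, the angiotensin precursor, from 105 to 166 TPM, Apoe from 193 to 273 TPM and Cpt1b, a carnitine transferase of fatty acid oxidation, from 120 to 129 TPM. Adig, a small adipocyte protein gene, ranged from 62.3 to 79.7 TPM, with a log2 difference of -0.19 and 0.878 as its adjusted p in limma. The transcription factors Rxra and Zfp423 ranged from 19.7 to 25.1 and from 25.0 to 33.2 TPM.

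A few other adipocyte genes varied like Fabp4. Scd1, the stearoyl-CoA desaturase of fat, was at 4.67, 5.43, 4.15 and 4.56 TPM in anti-PD-L1 libraries, against 16.5, 3.83, 7.98 and 4.23 TPM in IgG libraries, with an r of 0.884 with Fabp4. It was the only one of the 61 tested with an r of at least 0.8. Lep, the gene of leptin, was at 0.16, 0.12, 0.12 and 0.10 TPM in anti-PD-L1 libraries, against 0.69, 0.09, 0.24 and 0.18 TPM in IgG libraries. Its order matches that of Fabp4 at the top, with IgG replicates 1 and 3 first, at levels under the filter. Cav1, which encodes a protein of the cell surface pits called caveolae, was at 6.27, 8.91, 11.1 and 8.06 TPM in anti-PD-L1 libraries, against 13.6, 8.43, 14.6 and 8.77 TPM in IgG libraries, an r of 0.790. Aoc3, an amine oxidase of fat cell surfaces, ranged from 1.75 to 2.64 TPM, and Nampt, an enzyme of NAD synthesis also called visfatin, from 9.17 to 12.7 TPM. Pparg, the receptor that drives fat cell formation, and Cebpa, a factor that acts with it, ranged only from 1.17 to 2.64 TPM and from 0.98 to 1.62 TPM.

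Genes of the brown fat list gave no such pattern, and neither did Cidea, with an r of 0.474 with Fabp4. Ucp1, the uncoupling protein that defines brown fat, was at most 0.09 TPM, with values of 0.05, 0.07, 0 and 0.03 TPM in anti-PD-L1 libraries and 0.04, 0, 0 and 0.09 TPM in IgG libraries. Prdm16 ranged from 4.75 to 8.24 TPM. Of 12 genes in that list 4 were tested, with 2 lower and 2 higher.

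**Figure D4:**
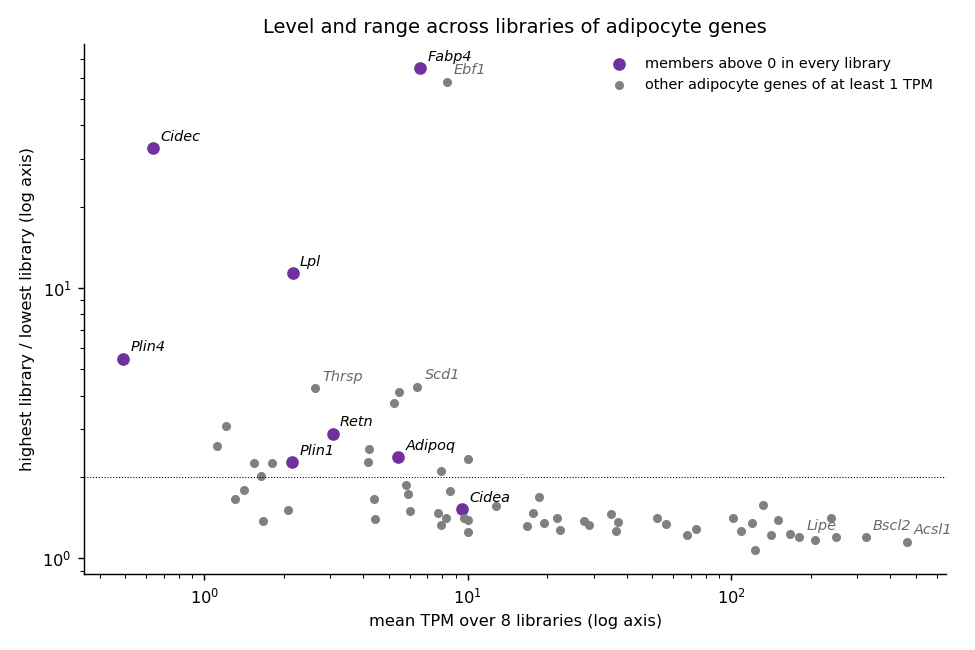
Mean TPM over the 8 libraries (horizontal log axis) against the ratio of the highest to the lowest library (vertical log axis) for the 8 members above 0 in every library and for 60 other adipocyte genes of at least 1 TPM; the dotted line marks a ratio of 2. The abundant genes Lipe, Bscl2 and Acsl1 lie near a ratio of 1, while Fabp4, Cidec and Lpl lie above 10, as does Ebf1 among the other genes.

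Markers of the cells that lie in or around testis and fat were summed per library. Epididymis markers, 12 of 15 above 0 somewhere, summed to 7.15 to 20.5 TPM in anti-PD-L1 libraries and to 6.60 to 9.68 TPM in IgG libraries, and Lcn5, Lcn8 and Lcn10 were listed at 0 in all 8. Mesothelium markers, 10 of 10 above 0, summed to 19.3 to 25.4 TPM in anti-PD-L1 libraries and to 19.9 to 20.4 TPM in IgG libraries, with Msln at most 0.60 TPM. Skeletal muscle markers, 12 of 12 above 0, summed to 15.8 to 18.9 TPM in anti-PD-L1 libraries and to 14.2 to 22.4 TPM in IgG libraries, with Acta1 at most 0.46 TPM. In IgG replicate 1, where the members peaked, the sums of these 3 lists were 6.60, 20.4 and 14.2 TPM. The epididymis and skeletal muscle sums of IgG replicate 1 were the lowest of the 8 libraries. These sums rested largely on genes present in every library. Actn3 made up 9.22 TPM of the muscle sum in IgG replicate 1 and ranged from 8.97 to 12.9 TPM. Rnase10 made up 3.25 TPM of the epididymis sum there and ranged from 3.22 to 4.18 TPM. Acta1 went the other way, with its 0.46 TPM in IgG replicate 1 and at most 0.21 TPM elsewhere.

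Stromal, endothelial and macrophage markers were more abundant and even. Adipose stroma markers summed to 65.1 to 79.2 TPM in anti-PD-L1 libraries and to 65.9 to 83.2 TPM in IgG libraries, with IgG replicate 1 highest. Endothelial markers summed to 72.2 to 91.1 TPM in anti-PD-L1 libraries and to 78.8 to 82.6 TPM in IgG libraries. Macrophage markers, with Lpl counted among them, summed to 91.1 to 112 TPM in anti-PD-L1 libraries and to 86.4 to 117 TPM in IgG libraries. Within the endothelial list Pecam1, an adhesion protein, varied like Fabp4: it was at 1.32, 1.17, 1.70 and 1.24 TPM in anti-PD-L1 libraries, against 2.18, 1.24, 1.78 and 1.47 TPM in IgG libraries, an r of 0.967. Tie1, a receptor of endothelial cells that was below the filter, had an r of 0.940 and was at 0.80, 0.74, 0.82 and 0.67 TPM in anti-PD-L1 libraries, against 1.47, 0.92, 1.21 and 1.01 TPM in IgG libraries. The other 10 markers of the list had an r with Fabp4 from -0.608 for Rgcc to 0.657 for Cldn5, with -0.350 for Cdh5 and 0.256 for Kdr. No tested marker of the stromal, mesothelial and endothelial lists was called in limma.

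Red blood cell markers moved in part with the members. They summed to 109, 50.7, 159 and 60.3 TPM in anti-PD-L1 libraries, against 209, 34.1, 34.5 and 38.7 TPM in IgG libraries. IgG replicate 1 was highest, as for the members, but IgG replicate 3 was second lowest, although it was second highest for Fabp4. All 5 tested genes of this list were higher after anti-PD-L1, with 0 called. The part of blood, endothelial or stromal RNA in the members' values was not tested.

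**Figure D5:**
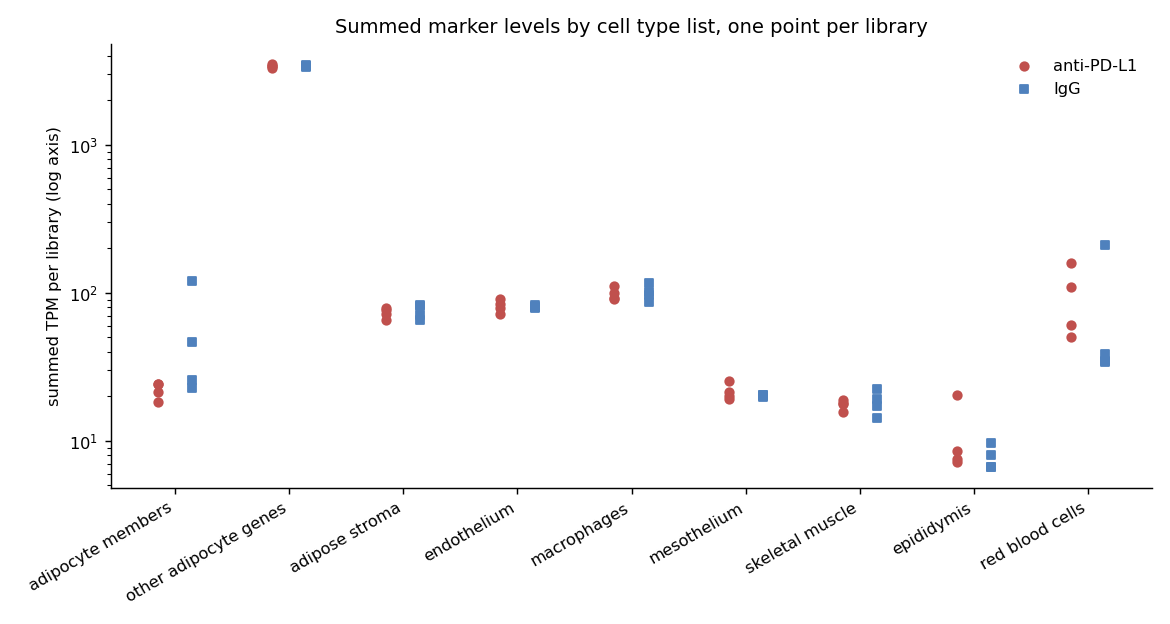
Summed TPM of each marker list per library on a log axis, with a point for each of the 4 anti-PD-L1 libraries (circles, left) and 4 IgG libraries (squares, right) of a list. The adipocyte members sum to 18.2 to 24.2 TPM in anti-PD-L1 libraries and to 22.6 to 120 TPM in IgG libraries. Over all libraries this is the widest range of the lists shown as a ratio of highest to lowest. Red blood cells follow with 34.1 to 209 TPM, a wider range than the members in TPM.

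The genes outside the members whose pattern was most like that of Adipoq, by Pearson's r over the 8 libraries among genes tested, were Gsn (0.948), Eif1 (0.946), Ctxn2 (0.931), Rps20 (0.930), Ptpmt1 (0.929), Dynll1 (0.927), Cplx4 (0.925), Evi2a (0.922), Prelp (0.920) and Med28 (0.918). Most of them ranged little, such as Eif1, a translation initiation factor, from 351 to 397 TPM, and Gsn, the actin-severing protein gelsolin, from 42.5 to 58.8 TPM. Those most like Fabp4 were Pecam1 (0.967), Cript (0.966), Hp (0.948), Fez1 (0.942), Smim8 (0.930), C1qtnf5 (0.920), Rgs5 (0.917), Bcam (0.907), Tex46 (0.902) and Mrpl12 (0.899). Hp, which encodes the haemoglobin-binding protein haptoglobin of liver and fat, was at 0.88, 0.23, 0.89 and 0.33 TPM in anti-PD-L1 libraries, against 7.59, 0.60, 1.94 and 0.34 TPM in IgG libraries. With 8 libraries and 20343 genes, such ranks are a description of these samples.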

How the data were processed

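Testis RNA was TRIzol-extracted, DNase-treated and sequenced from TruSeq libraries, per the labels' protocols. The deposited table holds TPM per gene, computed by the authors. CASAVA 1.8, HISAT2, StringTie, RSEM and the build mm10 appear, without their roles, in the submitters' processing notes. For the annotation and strand setting, the sources used here give nothing. TPM keeps no depth, so no counting intervals are given. Deposited gene lengths and group means entered no test. Coordinates are from GENCODE M21 and promoters from RefSeq, both GRCm38, matched by gene identifier and by symbol.

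Values were taken as log2(TPM + 1). The 20343 genes whose mean reached 1 TPM were tested with limma 3.58.1 in R 4.3.3, with an intensity trend and no covariates, and p-values were Benjamini-Hochberg adjusted over all of them at 0.05. Single members were also compared by two-sided exact permutation. The script was tested on simulated data. The members, gene lists and tests were chosen with earlier results of these data known. A member was said to follow an anchor gene where r was at least 0.8 with all 8 libraries and without the 2 farthest from the anchor's median, and to be steady where its highest library was at most 2 times its lowest. Named genes were the members, from each list of adipocyte genes the 2 most abundant and the 1 most correlated with Adipoq, the first 3 detected markers of each cell type, members of the protein families and partners, and the 10 genes most like Adipoq. Genes outside this rule (Adig, Insr, Pparg, Insl3, Tie1, Rgcc, Cldn5, Spink8, Lcn5, Lcn8, Lcn10, Actn3, Rnase10, Ebf1 and those most like Fabp4) were chosen after their values were seen. Alternatives were quantile normalization, rescaling by trimmed means of M values, a pseudocount of 0.1, filters of 0 or 5 TPM, array quality weights, no trend, the replicate number as a block, and libraries left out. No pair of libraries had equal TPM in more than 2.48% of the genes above 0 in either.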

Additional observations from a re-analysis of the deposited data

Results flagged for a closer look

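In 20 groups of 4 libraries, 10 members in each of the anti-PD-L1 and IgG groups, the most extreme library was set against the rest by its gap to the nearest other library over the whole range of the group, and chance gives such a gap in about 1 in 20 groups. The gap ratio exceeded Dixon's 95% critical value for 4 samples in 3 cases. Car3 in anti-PD-L1 replicate 3 was at 1.62 TPM (ratio 0.914), where the other anti-PD-L1 libraries were at 0.14, 0 and 0 TPM. Cidea in IgG replicate 1 was at 12.1 TPM (ratio 0.98), where the other IgG libraries lay between 8.91 and 8.99 TPM. Retn in IgG replicate 1 was at 6.33 TPM (ratio 0.848), where the other IgG libraries lay between 2.58 and 3.15 TPM. The much larger values of Fabp4, Cfd, Car3, Lpl and Cidec in IgG replicate 1 did not exceed that ratio, because IgG replicate 3 lay between them and the others.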

How the results depend on the processing

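The number of members called in limma was 0 under each alternative run, and also with the replicate block. Over 155 values of single members under 17 alternatives, 153 kept their direction and side of the threshold. Cidea differed by 0.034 without IgG replicate 1 and by -0.16 once the libraries of most detected genes were left out, where it was -0.066 with all libraries, and Plin4 had an exact permutation p of 0.0286 without IgG replicate 2, on 35 assignments. The number of genes called over all genes was 1 with a pseudocount of 0.1, 5 with array quality weights and 8 without both libraries of most detected genes (anti-PD-L1 replicate 1, IgG replicate 4), against 0, and it ran from 0 to 15 with single libraries left out (15 without IgG replicate 4). Members lower numbered 3 with a filter of 5 TPM, which tested only 3, and 7 to 8 with single libraries left out. The members' median ran from -0.82 to -0.33 with single libraries left out, the weakest without IgG replicate 1. Members following Adipoq numbered 0 to 4 with single libraries left out, reaching 2 when anti-PD-L1 replicate 2 and 4 when anti-PD-L1 replicate 3 was left out, and those following Fabp4 numbered 3 to 4. The cause of these changes was not tested. Deviations of same-numbered libraries of the groups had correlations from -0.198 to 0.10. Anti-PD-L1 replicates 2 and 3 correlated best with the IgG library of their own number, and replicates 1 and 4 with another. Such low correlations over so few libraries cannot settle whether the numbers pair the samples. With the replicate block 0 genes were called over all genes.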

Other observations

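Ebf1, a transcription factor of fat precursors and B cells in the list of adipocyte regulators, ranged almost as widely as Fabp4 but in other libraries. It was at 32.4, 5.65, 7.65 and 0.78 TPM in anti-PD-L1 libraries, against 0.76, 5.94, 0.56 and 12.6 TPM in IgG libraries. IgG replicates 1 and 3, which were highest in Fabp4, were the lowest in Ebf1. The libraries highest in Ebf1, anti-PD-L1 replicate 1 and IgG replicate 4, were those with the most detected genes, 21083 and 21116, and the part of that in its values was not tested. Spink8, an epididymal protease inhibitor gene, was at 12.2 TPM in anti-PD-L1 replicate 2 and between 1.65 and 2.96 TPM in the other 7 libraries. Both were chosen after their values were seen.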
